A study of Mus musculus with 12 samples.

Results

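The genes described here are targets of p53, a DNA-binding protein that is stabilised by DNA damage and other stresses and then switches on genes for cell cycle arrest, DNA repair and cell death. They form a list of 36 genes taken from general knowledge of the pathway, chosen with earlier results of these data known. Their probes were found on the arrays by gene name or RefSeq accession, without use of any measured value. All 36 were on the array, with 44 probes between them, among 34602 distinct gene names. Of these genes, 33 were bright enough to be tested, out of 20568 genes tested in all.

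The levels were measured in RNA from whole mouse liver, on 1 Agilent one-colour array per sample, in 3 groups of 4 samples. The first group was E2f1 knockout (E2f1-/-), the second was labelled E2f2 knockout (E2f2-/-), and the third was wild type of a mixed 129/Sv x C57BL/6 background. For the other groups the labels name no strain. E2f1 and E2f2 are transcription factors of the E2F family, which drive genes for DNA replication and division. Per the treatment protocol, every mouse of the 3 groups was given the liver carcinogen diethylnitrosamine once, at 25 mg/kg on postnatal day 14. From weaning at 1 month, a diet with 60% fat calories was fed over 32 weeks, and the mice, fasted for 4 hours, were 9 months old when their livers were taken. No group without carcinogen or on normal diet was analysed here, so per that protocol the differences below are between genotypes that shared both exposures. For the E2f1 knockout samples 1 label, the source name, gives vehicle and chow instead, against their title, description and characteristics, and every comparison with that group carries this conflict. The labels state neither the sex of the mice, nor the deleted exons, nor whether they were littermates.

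The targeted genes were examined first. The probe for E2f1 gave -0.72, -0.91, -0.64 and -0.79 in E2f1 knockout livers, -0.50, -0.17, 0.08 and 0.19 in E2f2-labelled livers and -0.27, 0.13, 0.45 and -0.08 in wild type livers. The E2f1 knockout arrays lay below all wild type arrays, with a difference of -0.82 ± 0.19 (log2 ± SE; limma adjusted p = 0.0114). The E2f2 probe read -0.20, -1.10, -0.86 and -0.65 in E2f1 knockout livers, 0.19, 0.72, 0.73 and 0.53 in E2f2-labelled livers and 0.48, 1.04, 0.97 and 0.71 in wild type livers. Here the E2f2-labelled and wild type arrays overlapped (-0.26 ± 0.21; limma adjusted p = 0.409), and the lowest group was E2f1 knockout (-1.50 ± 0.21; adjusted p = 0.00141). Where a probe lies outside the deletion it checks nothing, and the position of the deletion was not known here, so the second group is called the E2f2-labelled livers throughout. All 12 hepatocyte genes examined, Alb and Ttr among them, were well above background on every array. Arrays had 75th percentiles of 119 to 238 intensity units, with 44.6% to 54.4% of their probes well above background. The 4 slides held 1 array of each group each, and each group always sat in the same slide column, so slide position and genotype cannot be told apart. In whole-liver RNA a lower level from fewer cells of a type and a lower level from less RNA per cell cannot be told apart.

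A level below is the log2 processed signal of the gene's brightest tested probe minus the 75th percentile of its array, so a difference of 1 is a 2-fold difference within the array. A gene was said to rise or fall when its Benjamini-Hochberg adjusted p in limma, over all genes tested, was under 0.05. The 2 comparisons with wild type share the same 4 wild type arrays and are not independent. Levels of different genes come from different probes and are not set against each other.

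In cells p53 is held low by Mdm2, a ubiquitin ligase that marks it for destruction and is itself switched on by p53. Its best known targets halt the cycle, open the mitochondrial membrane through proteins of the Bcl2 family, raise death receptors on the cell surface, dampen growth signalling and repair DNA. In the liver the same genes respond to carcinogens whose adducts damage hepatocyte DNA. Some genes first found as p53 targets, such as Psrc1, Ckap2 and Gtse1, also encode proteins of the mitotic spindle and are transcribed in dividing cells.

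Most of the p53 target genes that changed were lower without E2f1 or in E2f2-labelled livers than in wild type. In E2f1 knockout livers 11 of the 33 tested genes fell and 1 rose, that is 36.4% in either direction against 20.6% of all genes tested and 33.3% lower against 7.41% of all genes. In E2f2-labelled livers 13 fell and 1 rose, 42.4% against 22.2% in either direction and 39.4% lower against 7.57%. The same shares of all genes stand beside the counts by role below, each of which rests on few genes. Over the 33 genes the median difference was -0.54 for E2f1 knockout and -0.71 for E2f2-labelled livers, while over all genes it was 0.13 for E2f1 knockout and 0.18 for E2f2-labelled livers. The 8 genes lower in both were Phlda3, Psrc1, Ddit4l, Ckap2, Abcb1a, Btg2, Pmaip1 and Bax, and Plk3 was higher in both. Trp53, Zmat3 and Plk2 passed against wild type in E2f1 knockout alone, and Tnfrsf10b, Polk, Apaf1, Bbc3 and Ccng1 in E2f2-labelled livers alone, although the direct test of E2f1 knockout against E2f2-labelled livers called none of these 8.

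**Figure D1:**
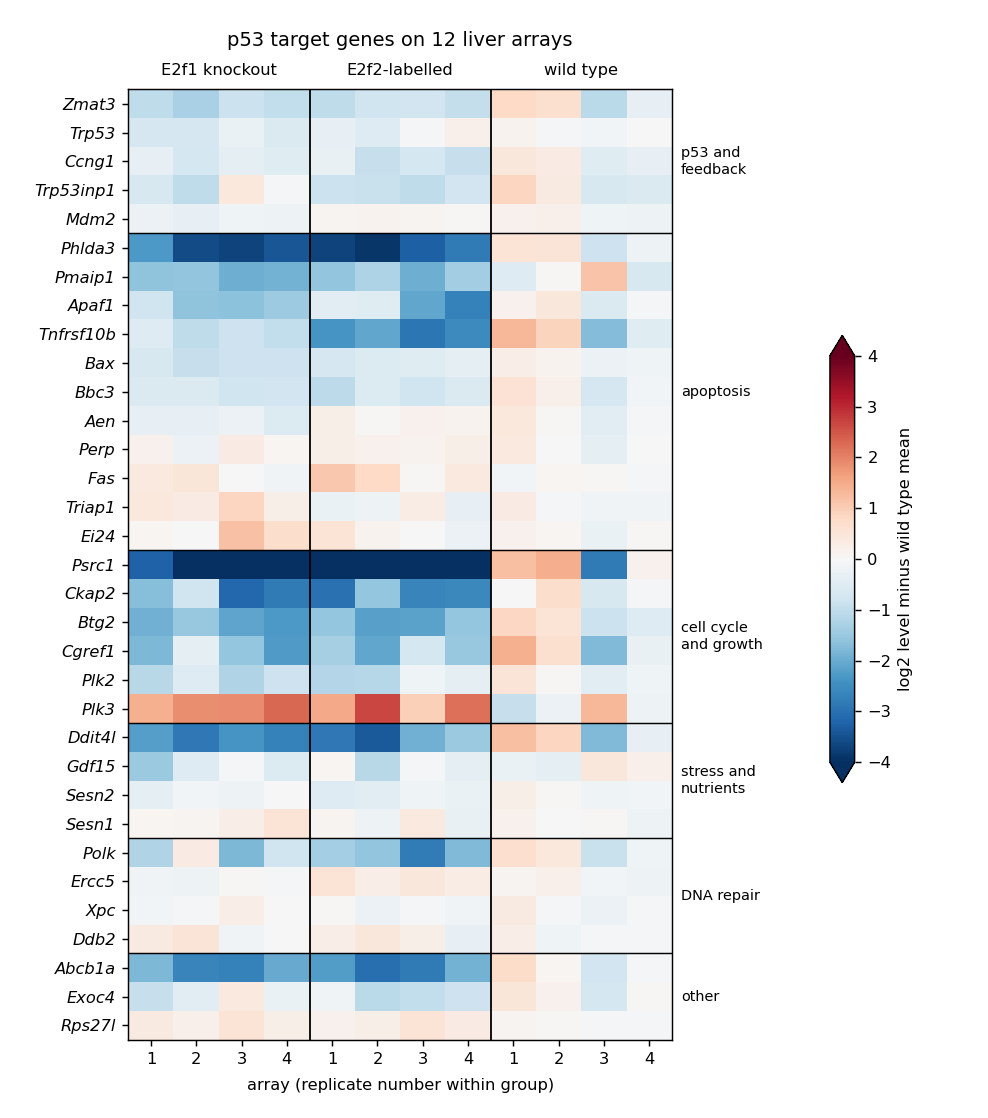
Level of each of the 33 tested p53 target genes on each of the 12 arrays, as the log2 difference from the gene's mean over the 4 wild type arrays (colour, blue lower and red higher, clipped at 4 in each direction). Rows are grouped by role and columns are the arrays of E2f1 knockout, E2f2-labelled and wild type livers. Phlda3, Btg2, Abcb1a and Ddit4l are blue on all 8 arrays of the first 2 groups, Plk3 is red on them, and wild type array 3 is pale or blue for most genes.

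Some of these genes were tested only because they were bright in wild type livers. To be tested, a probe had to exceed background clearly on 3 or more of the 4 arrays of a group, and Psrc1, Ddit4l, Ckap2 and Apaf1 met this through the wild type arrays alone, so that a lower level in the other groups was built into their passing. Among the 28 p53 target genes well above background on at least 3 arrays of every group, 7 fell and 1 rose in E2f1 knockout livers, and 8 fell and 1 rose in E2f2-labelled livers. With the genes that have only a bound (4 in E2f1 knockout livers and 3 in E2f2-labelled livers) set at it, the medians over the 33 genes stayed at -0.54 in E2f1 knockout livers and -0.71 in E2f2-labelled livers. Over the 28 the median difference was -0.34 in E2f1 knockout livers and -0.35 in E2f2-labelled livers. Of the 18082 genes of the array that met the same condition, 6.56% fell in E2f1 knockout livers and 6.53% in E2f2-labelled livers, and their medians were the same 0.13 and 0.18 as over all genes. Eda2r, Gtse1 and Rrm2b were not tested: Rrm2b was below background on all 12 arrays, Eda2r was above it on 1, and Gtse1 was above it on 2 wild type arrays and 1 E2f2-labelled array.

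Promoter sequence could be shown for some of the genes that changed in both comparisons. RefSeq windows of 300 bases around the transcription start (250 before and 50 after it, build GRCm38.p6) were available for 28 of the 36 genes, as 38 windows, since some genes have several. Windows were searched on both strands for the 10-base p53 half-site, for the CHR element TTTGAA of genes expressed at mitosis, and for the E2F words TTTCCCGC, TTTGGCGC, TTTCGCGC and TTTGCCGC. The half-site letters occurred in 14 windows of 13 genes (36.8% of the 38 windows, against 8.36% of all 32851 windows), the CHR letters in 7 windows (18.4% against 17.9%), and the E2F words in none (against 2.26%). The 4 promoters below are those of genes that fell in both comparisons and held at least 1 of these matches, printed 5′ to 3′ on the strand of the gene with the matches in capitals. They lie at chr3:137623422-137623721 (forward strand), chr5:8566841-8567140 (forward strand), chr8:22185770-22186069 (reverse strand) and chr7:45466849-45467148 (reverse strand).
Ddit4l: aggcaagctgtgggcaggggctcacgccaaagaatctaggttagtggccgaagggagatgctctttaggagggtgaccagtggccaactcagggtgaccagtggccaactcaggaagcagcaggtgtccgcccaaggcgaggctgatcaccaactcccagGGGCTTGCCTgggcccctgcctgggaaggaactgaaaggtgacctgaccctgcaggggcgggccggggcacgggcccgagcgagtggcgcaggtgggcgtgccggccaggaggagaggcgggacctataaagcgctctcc
Abcb1a: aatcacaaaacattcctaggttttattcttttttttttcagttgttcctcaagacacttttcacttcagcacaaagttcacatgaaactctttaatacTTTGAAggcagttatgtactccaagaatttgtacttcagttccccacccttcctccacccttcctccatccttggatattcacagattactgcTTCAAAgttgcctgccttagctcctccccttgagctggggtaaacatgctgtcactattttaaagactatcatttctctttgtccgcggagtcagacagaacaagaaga
Ckap2: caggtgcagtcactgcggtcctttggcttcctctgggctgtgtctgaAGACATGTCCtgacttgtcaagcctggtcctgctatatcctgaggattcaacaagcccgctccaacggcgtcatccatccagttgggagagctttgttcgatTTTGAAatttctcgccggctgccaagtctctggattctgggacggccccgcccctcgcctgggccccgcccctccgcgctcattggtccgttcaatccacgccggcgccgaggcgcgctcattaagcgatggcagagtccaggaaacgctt
Bax: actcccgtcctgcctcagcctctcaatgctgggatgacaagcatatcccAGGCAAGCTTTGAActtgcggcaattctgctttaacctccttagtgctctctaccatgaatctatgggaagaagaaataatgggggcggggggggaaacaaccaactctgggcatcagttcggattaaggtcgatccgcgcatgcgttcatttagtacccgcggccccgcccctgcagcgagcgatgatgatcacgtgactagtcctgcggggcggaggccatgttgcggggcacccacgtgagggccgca
In the Ddit4l window the capitals are 1 half-site that begins at position -90 from the start, and in the Abcb1a window they are 2 CHR matches, 1 on each strand. The Ckap2 window holds a half-site at -203 and a CHR match at -101. In the Bax window a half-site at -201 and a CHR match at -193 overlap, which gives 1 run of capitals. These matches are letters in a short window, and no binding was measured.

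Of the 5 genes of the p53 core and its feedback, 2 fell in E2f1 knockout livers and 1 in E2f2-labelled livers. Trp53, which encodes p53 itself, read -2.21, -2.20, -1.78 and -2.10 in E2f1 knockout livers, -1.85, -2.04, -1.61 and -1.34 in E2f2-labelled livers and -1.38, -1.58, -1.64 and -1.51 in wild type livers (probe at chromosome 11, 69404204 to 69404263, mm9). All 4 E2f1 knockout arrays were below all wild type arrays, while the E2f2-labelled arrays overlapped them. Trp53 fell by 0.54 ± 0.17 in E2f1 knockout livers (SE, n = 4 per group; limma adjusted p = 0.0419) and differed by -0.18 ± 0.17 in E2f2-labelled livers (adjusted p = 0.472). The call in E2f1 knockout was lost when any 1 of 8 arrays was left out, with differences from -0.49 to -0.56 and limma adjusted p from 0.0508 to 0.0953. These arrays were E2f1 knockout replicates 1, 2 and 4, E2f2-labelled replicates 1 and 3 and wild type replicates 1, 2 and 4. Under normexp background correction Trp53 differed by -0.19 in E2f1 knockout (limma adjusted p = 0.264), and its call was lost too under median centring, with no filter and in a fit of only the groups compared (adjusted p 0.0511 to 0.101).

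Mdm2, the ligase that degrades p53, read 3.50, 3.39, 3.56 and 3.54 in E2f1 knockout livers, 3.84, 3.89, 3.83 and 3.77 in E2f2-labelled livers and 3.90, 3.92, 3.57 and 3.55 in wild type livers. The wild type arrays formed a higher pair (replicates 1 and 2) and a lower pair, with the E2f2-labelled arrays between the pairs and the E2f1 knockout arrays within or below the lower one. The difference from wild type was -0.23 ± 0.13 in E2f1 knockout (limma adjusted p = 0.242) and 0.10 ± 0.13 in E2f2-labelled livers (adjusted p = 0.624), and neither passed. Under quantile normalization Mdm2 was called lower in E2f1 knockout livers (-0.44, limma adjusted p = 0.0361).

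Among the other feedback genes, Zmat3, a zinc finger protein that binds RNA, read -0.85, -1.11, -0.67 and -0.81 in E2f1 knockout livers, -0.83, -0.61, -0.60 and -0.79 in E2f2-labelled livers and 0.96, 0.83, -0.91 and -0.17 in wild type livers. Wild type arrays 1 and 2 stood above all others and wild type array 3 lay among the E2f1 knockout values. Zmat3 fell by 1.04 ± 0.34 in E2f1 knockout livers (limma adjusted p = 0.047), and its difference in E2f2-labelled livers was -0.88 ± 0.34 (adjusted p = 0.0798). The E2f1 knockout call was lost on leaving out any of 11 arrays, all but wild type replicate 3 (differences -0.78 to -1.15, limma adjusted p 0.0511 to 0.137), and without wild type replicate 3 the E2f2-labelled livers passed too (-1.25, adjusted p = 0.00387). It was also lost under normexp, with no filter, in a fit of only the groups compared and with the slide as a block (limma adjusted p 0.0534 to 0.101). Ccng1, a cyclin that recruits a phosphatase to Mdm2, read 0.41, 0.03, 0.36 and 0.24 in E2f1 knockout livers, 0.43, -0.20, 0.04 and -0.18 in E2f2-labelled livers and 1.20, 1.08, 0.24 and 0.42 in wild type livers. Its lowest wild type arrays overlapped both other groups. Ccng1 fell by 0.71 ± 0.23 in E2f2-labelled livers (limma adjusted p = 0.0444), a call lost without any 1 of 9 arrays (all but E2f2-labelled replicate 1 and wild type replicates 3 and 4; -0.56 to -0.72, adjusted p 0.0515 to 0.125). The call was lost too under median centring, with no filter and in a fit of only the groups compared (limma adjusted p 0.0548 to 0.0948). In E2f1 knockout the difference of Ccng1 was -0.47 ± 0.23 (adjusted p = 0.174). Trp53inp1, a nuclear cofactor of p53, differed by -0.33 ± 0.36 in E2f1 knockout (limma adjusted p = 0.578) and -0.88 ± 0.36 in E2f2-labelled livers (adjusted p = 0.0963) and passed in neither, though its 4 E2f2-labelled arrays were below every wild type array. On a second Trp53inp1 probe the E2f2-labelled arrays overlapped wild type (-0.59, limma adjusted p = 0.225 when all probes were fitted). Without wild type replicate 3 Trp53inp1 passed in E2f2-labelled livers (-1.09, adjusted p = 0.0456).

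Among genes of cell death, Phlda3 fell furthest. Phlda3, whose protein competes with the kinase Akt for membrane lipids and so restrains survival signalling, read 0.52, -0.75, -0.90 and -0.59 in E2f1 knockout livers, -0.88, -1.07, -0.45 and -0.0025 in E2f2-labelled livers and 3.35, 3.34, 1.98 and 2.61 in wild type livers (probe at chromosome 1, 137665642 to 137665701, mm9). All wild type arrays were at 1.98 or more, and no other array exceeded 0.52. Phlda3 fell by 3.25 ± 0.38 in E2f1 knockout (limma adjusted p = 0.000488) and by 3.42 ± 0.38 in E2f2-labelled livers (adjusted p = 0.000218). Within the 4 slides, its difference ran from -4.09 to -2.84 in E2f1 knockout and from -4.41 to -2.43 in E2f2-labelled livers.

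Of the Bcl2 family members, Pmaip1 (Noxa), which neutralises the survival protein Mcl1, read -1.80, -1.76, -2.13 and -2.07 in E2f1 knockout livers, -1.77, -1.41, -2.14 and -1.57 in E2f2-labelled livers and -0.71, -0.13, 0.95 and -0.83 in wild type livers. The wild type arrays were all above the others, and wild type array 3, the lowest wild type array for most of these genes, was here the highest. Pmaip1 fell by 1.76 ± 0.33 in E2f1 knockout (limma adjusted p = 0.00476) and by 1.54 ± 0.33 in E2f2-labelled livers (adjusted p = 0.00794). Under normexp the differences of Pmaip1 were -0.91 in E2f1 knockout livers and -0.80 in E2f2-labelled livers, and both still passed. Bax, the protein that forms pores in the mitochondrial outer membrane, read 2.89, 2.61, 2.73 and 2.72 in E2f1 knockout livers, 2.88, 3.00, 3.06 and 3.18 in E2f2-labelled livers and 3.81, 3.69, 3.31 and 3.37 in wild type livers (probe at chromosome 7, 52717122 to 52717181, mm9). Neither of the other groups overlapped wild type. Bax fell by 0.81 ± 0.15 in E2f1 knockout (limma adjusted p = 0.00431) and by 0.52 ± 0.15 in E2f2-labelled livers (adjusted p = 0.0283). Its E2f2-labelled call was lost without E2f2-labelled replicate 1, 2 or 3 or wild type replicate 1 or 2 (-0.43 to -0.53, limma adjusted p 0.0579 to 0.0838). That call was also lost with no filter and in a fit of only the groups compared (limma adjusted p 0.0596 to 0.0771). Bbc3 (Puma), which activates Bax, read 2.18, 2.18, 1.97 and 2.00 in E2f1 knockout livers, 1.70, 2.22, 1.95 and 2.19 in E2f2-labelled livers and 3.35, 2.95, 2.08 and 2.66 in wild type livers, and 1 low wild type array overlapped both other groups. Bbc3 fell by 0.74 ± 0.24 in E2f2-labelled livers (limma adjusted p = 0.0413) and differed by -0.68 ± 0.24 in E2f1 knockout (adjusted p = 0.0603). The E2f2-labelled call of Bbc3 was lost without any 1 of 10 arrays (all but E2f1 knockout replicate 3 and wild type replicate 3; -0.54 to -0.81, adjusted p 0.0522 to 0.106), and without wild type replicate 3 the E2f1 knockout livers passed (-0.90, adjusted p = 0.00626). Bbc3 also passed in E2f1 knockout under normexp, quantile normalization, the deposited series values, the filter on all arrays and array weights (limma adjusted p 0.0277 to 0.0491), and in E2f2-labelled livers it was lost with no filter and in a fit of only the groups compared (adjusted p 0.0862 to 0.0884).

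Of the 33 genes, the death receptor Tnfrsf10b, which binds the ligand Trail, had the largest difference between E2f1 knockout and E2f2-labelled livers. Its levels were -0.51, -1.01, -0.83 and -0.98 in E2f1 knockout livers, -2.37, -2.08, -2.89 and -2.56 in E2f2-labelled livers and 1.32, 0.89, -1.72 and -0.50 in wild type livers. The 4 E2f2-labelled arrays were the lowest of the 12, while the E2f1 knockout arrays lay inside the wild type range, which spanned from -1.72 to 1.32. Tnfrsf10b fell by 2.47 ± 0.52 in E2f2-labelled livers (limma adjusted p = 0.00706), against a difference of -0.83 ± 0.52 in E2f1 knockout (adjusted p = 0.296). Under normexp the E2f2-labelled difference was -1.22 and still passed. Without wild type replicate 3 the E2f1 knockout livers passed as well (-1.40, limma adjusted p = 0.0174). The direct difference, E2f1 knockout minus E2f2-labelled, was 1.65 ± 0.52 with a 95% interval of 0.52 to 2.77 and did not pass (limma adjusted p = 0.186). It passed when only those groups were fitted (adjusted p = 0.00321) or when wild type replicate 3 was left out (adjusted p = 0.0311). Fas, another death receptor, did not pass against wild type in E2f1 knockout (0.19 ± 0.22; limma adjusted p = 0.61) or in E2f2-labelled livers (0.58 ± 0.22; adjusted p = 0.0809), but rose in E2f2-labelled livers once E2f2-labelled replicate 3 was left out (0.75, adjusted p = 0.0337).

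Apaf1, the scaffold on which caspase 9 is activated, was near the floor of detection. It read -3.45, -4.28, -4.28 and -4.10 in E2f1 knockout livers, -3.08, -3.14, -4.72 and -5.36 in E2f2-labelled livers and -2.49, -2.22, -3.22 and -2.69 in wild type livers, well above background on 3 wild type arrays, 1 E2f2-labelled array and no E2f1 knockout array. Apaf1 was called lower in E2f2-labelled livers, with a fitted difference of -1.42 ± 0.46 (limma adjusted p = 0.0455) that rests on 3 of 4 arrays not well above background, and it was at least 1.95-fold lower in E2f1 knockout livers without passing there (adjusted p = 0.0544). Such a bound sets the mean of the brighter group against the higher of 2 signals on each array of the dimmer one, the lowest that was well above background and the probe's own. All such bounds are for the main processing. For Apaf1 the wild type mean includes array 3, not well above background, and the smallest E2f1 knockout difference over the alternative settings was -0.15. Its E2f2-labelled call was lost without E2f1 knockout replicate 2, 3 or 4 or E2f2-labelled replicate 3 or 4 (-0.99 to -1.42, limma adjusted p 0.0559 to 0.118), and under normexp background correction the difference was -0.05 (adjusted p = 0.781). It was lost too with no filter and in a fit of only the groups compared (limma adjusted p 0.0865 to 0.0876). In E2f1 knockout livers Apaf1 passed under quantile normalization, median centring, the deposited series values and a fit of only the groups compared (adjusted p 0.0153 to 0.048), and without E2f1 knockout replicate 1, E2f2-labelled replicate 1, 2 or 4 or wild type replicate 3 (adjusted p 0.0243 to 0.0485). The other 4 tested death genes passed in neither comparison, although Aen was lower in E2f1 knockout without wild type replicate 3 (-0.50, limma adjusted p = 0.0377), under quantile normalization (-0.59, adjusted p = 0.0361) and in the deposited series values (-0.60, adjusted p = 0.035). Aen, a nuclease, differed by -0.36 in E2f1 knockout livers and 0.15 in E2f2-labelled livers. Perp, a membrane protein of cell junctions, differed by 0.09 in E2f1 knockout livers and 0.20 in E2f2-labelled livers. For Ei24, a protein of the endoplasmic reticulum, the differences were 0.49 in E2f1 knockout livers and 0.11 in E2f2-labelled livers, and for Triap1, a mitochondrial survival protein, 0.47 in E2f1 knockout livers and -0.12 in E2f2-labelled livers. In all, 3 of 11 tested genes of cell death fell in E2f1 knockout and 6 of 11 in E2f2-labelled livers.

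**Figure D2:**
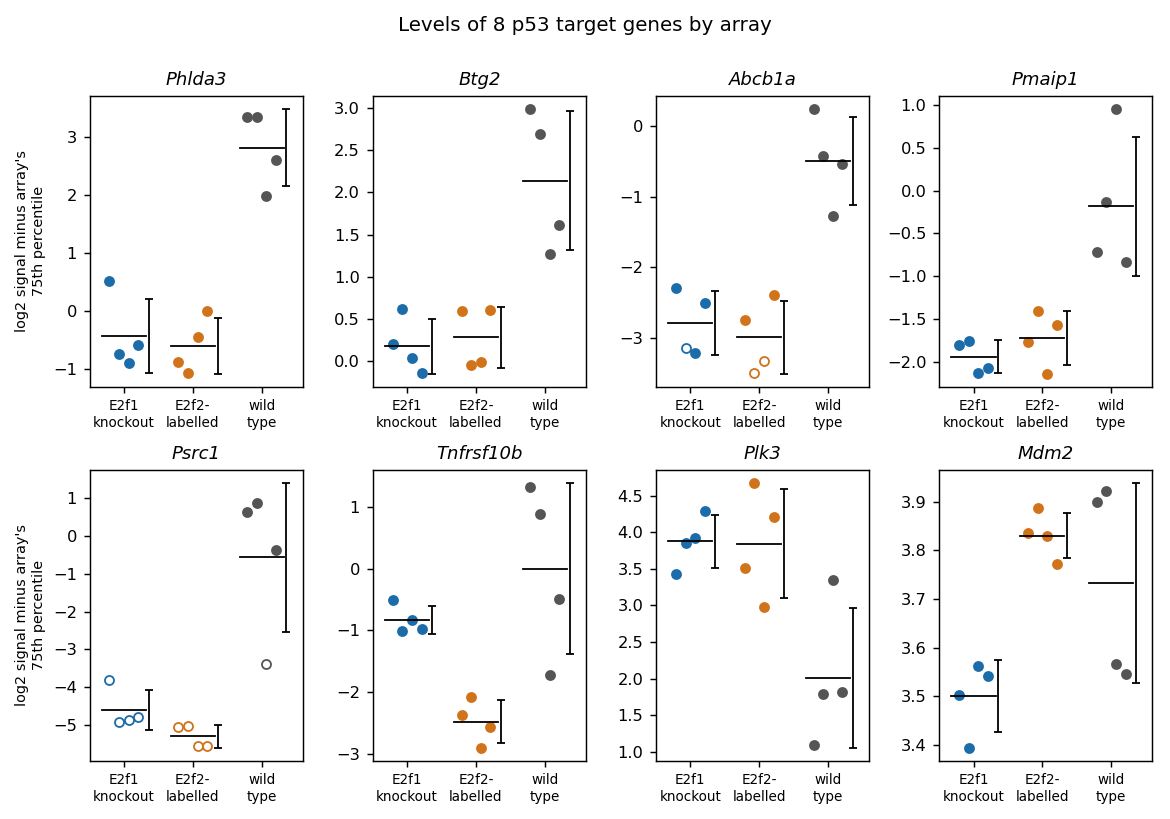
Levels of 8 p53 target genes on each array, as log2 signal minus the array's 75th percentile, with 4 samples per group (points in replicate order from left to right; open points are not well above background). Horizontal lines are group means and vertical bars are SD, and each panel has its own vertical range. Phlda3, Btg2, Abcb1a and Pmaip1 have no overlap between wild type and either other group, Tnfrsf10b is lowest in the E2f2-labelled livers, and Mdm2 spans less than 1 log2 unit.

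The genes of cell cycle and growth control held both falls and the single rise. Btg2, an antiproliferative protein that speeds the decay of messenger RNA, read 0.21, 0.62, 0.03 and -0.14 in E2f1 knockout livers, 0.59, -0.04, -0.01 and 0.60 in E2f2-labelled livers and 2.98, 2.69, 1.27 and 1.62 in wild type livers (probe at chromosome 1, 135972094 to 135972153, mm9). The highest of the 8 arrays of the other groups, 0.62, was below the lowest wild type array, 1.27. Btg2 fell by 1.96 ± 0.35 in E2f1 knockout (limma adjusted p = 0.00398) and by 1.86 ± 0.35 in E2f2-labelled livers (adjusted p = 0.00479). Its within-slide differences ran from -2.78 to -1.23 in E2f1 knockout livers and from -2.74 to -1.01 in E2f2-labelled livers.

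Plk3, a polo-like kinase induced by stress, was the only one of the 33 to rise. It read 3.42, 3.86, 3.92 and 4.30 in E2f1 knockout livers, 3.51, 4.67, 2.98 and 4.21 in E2f2-labelled livers and 1.09, 1.79, 3.35 and 1.82 in wild type livers (probe at chromosome 4, 116801317 to 116801376, mm9). Wild type arrays 1, 2 and 4 were the lowest of the 12, and wild type array 3, at 3.35, lay below every E2f1 knockout array but above 1 E2f2-labelled array. The rise was 1.86 ± 0.46 in E2f1 knockout (limma adjusted p = 0.0149) and 1.83 ± 0.46 in E2f2-labelled livers (adjusted p = 0.015). Within slides the difference ran from 0.57 to 2.48 in E2f1 knockout and from -0.37 to 2.88 in E2f2-labelled livers, the lowest on slide 3 in both. The Plk3 probe lies on the chromosome of E2f2, 18.9 Mb from the E2f2 probe. Plk2, a related kinase of the centrosome cycle, went the other way. It read -2.41, -1.82, -2.53 and -2.15 in E2f1 knockout livers, -2.48, -2.45, -1.49 and -1.70 in E2f2-labelled livers and -0.80, -1.26, -1.73 and -1.47 in wild type livers, and no E2f1 knockout array reached the wild type range. Plk2 fell by 0.91 ± 0.27 in E2f1 knockout (limma adjusted p = 0.0337), and its difference in E2f2-labelled livers was -0.72 ± 0.27 (adjusted p = 0.0792). The E2f1 knockout call was lost without E2f1 knockout replicate 1, 3 or 4 or wild type replicate 1 or 2 (-0.74 to -0.94, limma adjusted p 0.062 to 0.094), and the E2f2-labelled livers passed without E2f2-labelled or wild type replicate 3 (adjusted p 0.0484 and 0.0467). Under normexp Plk2 differed by -0.29 in E2f1 knockout (limma adjusted p = 0.198), and the call was also lost with the slide as a block (adjusted p = 0.0569) and with no filter (adjusted p = 0.0716).

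Both tested spindle genes were below background on all E2f1 knockout and E2f2-labelled arrays. Psrc1, which binds microtubules and regulates spindle dynamics, read -3.81, -4.92, -4.86 and -4.79 in E2f1 knockout livers, -5.05, -5.02, -5.54 and -5.57 in E2f2-labelled livers and 0.63, 0.87, -3.39 and -0.38 in wild type livers (probe at chromosome 3, 108190744 to 108190803, mm9). It was well above background on wild type arrays 1, 2 and 4 and on no other array. Psrc1 was at least 8.83-fold lower in E2f1 knockout (limma adjusted p = 0.004) and at least 10.4-fold lower in E2f2-labelled livers (adjusted p = 0.00167). These bounds are for the main processing, and the wild type mean in them includes array 3, itself not well above background. Over the alternative settings the smallest fitted difference of Psrc1 was -1.54 in E2f1 knockout livers and -1.53 in E2f2-labelled livers. Ckap2, another protein of spindle microtubules, read -4.88, -3.98, -6.33 and -6.01 in E2f1 knockout livers, -6.18, -4.75, -5.82 and -5.78 in E2f2-labelled livers and -3.16, -2.48, -3.84 and -3.28 in wild type livers, again above background on wild type arrays 1, 2 and 4 only. The bounds were at least 1.52-fold lower in E2f1 knockout (limma adjusted p = 0.0119) and at least 1.68-fold lower in E2f2-labelled livers (adjusted p = 0.00592). Under normexp background correction Ckap2 differed by -0.23 in E2f1 knockout (limma adjusted p = 0.336) and by -0.19 in E2f2-labelled livers (adjusted p = 0.407) and passed in neither. Cgref1, a secreted calcium-binding protein that slows growth, spanned from 0.51 to 3.72 in wild type and differed by -1.49 ± 0.61 in E2f1 knockout (limma adjusted p = 0.103) and -1.40 ± 0.61 in E2f2-labelled livers (adjusted p = 0.117). Without wild type replicate 3 Cgref1 fell by 2.08 in E2f1 knockout (limma adjusted p = 0.0111) and by 1.99 in E2f2-labelled livers (adjusted p = 0.0126). Of the 6 tested genes of this role, 4 fell and 1 rose in E2f1 knockout, and 3 fell and 1 rose in E2f2-labelled livers.

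Among stress and nutrient sensors 1 of 4 fell in each comparison. Ddit4l (Redd2), an inhibitor of the growth kinase complex mTORC1 whose promoter window is shown above, read -4.55, -5.20, -4.71 and -5.04 in E2f1 knockout livers, -5.21, -5.72, -4.27 and -3.84 in E2f2-labelled livers and -1.13, -1.49, -4.10 and -2.66 in wild type livers. It was above background on wild type arrays 1, 2 and 4 only, and 1 E2f2-labelled array exceeded wild type array 3. Ddit4l was at least 2.74-fold lower in E2f1 knockout (limma adjusted p = 0.0111) and at least 2.68-fold lower in E2f2-labelled livers (adjusted p = 0.0127). These bounds are for the main processing, and the wild type mean in them includes array 3, not well above background. Over the alternative settings the smallest fitted difference of Ddit4l in E2f1 knockout livers was -0.57. With normexp its E2f2-labelled difference was -0.47 and did not pass (limma adjusted p = 0.0911). Gdf15, a hormone released by stressed cells, differed by -0.64 ± 0.33 in E2f1 knockout (limma adjusted p = 0.197) and -0.37 ± 0.33 in E2f2-labelled livers (adjusted p = 0.452). The sestrins, which restrain mTORC1 when amino acids are scarce, did not pass either. Sesn1 differed by 0.24 in E2f1 knockout livers and 0.0013 in E2f2-labelled livers, and Sesn2 by -0.17 in E2f1 knockout livers and -0.34 in E2f2-labelled livers. Under quantile normalization Sesn2 was called lower in E2f2-labelled livers (-0.48, limma adjusted p = 0.0268), and its probe lies 3.70 Mb from that of E2f2.

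Of the 4 tested repair genes, none fell in E2f1 knockout and 1 fell in E2f2-labelled livers. Polk, a polymerase that copies past bulky adducts, read -2.45, -0.90, -3.04 and -2.04 in E2f1 knockout livers, -2.59, -2.83, -4.03 and -3.01 in E2f2-labelled livers and -0.59, -0.83, -2.14 and -1.42 in wild type livers, with every E2f2-labelled array below every wild type array. Polk fell by 1.87 ± 0.47 in E2f2-labelled livers (limma adjusted p = 0.0156), and its difference in E2f1 knockout was -0.86 ± 0.47 (adjusted p = 0.224). With the slide as a block Polk passed in E2f1 knockout too (limma adjusted p = 0.0453), and under normexp its E2f2-labelled difference was -0.56 (adjusted p = 0.0499). A second Polk probe read -1.20, -3.08, -3.20 and -3.20 in E2f1 knockout livers, -3.12, -2.50, -3.45 and -2.91 in E2f2-labelled livers and -1.57, -1.72, -2.44 and -2.26 in wild type livers. Its E2f2-labelled arrays too were below all wild type arrays. It differed by -1.0 ± 0.42 in E2f2-labelled livers when all probes were fitted and did not pass (limma adjusted p = 0.105), so the call of Polk depended on the probe. Ddb2 and Xpc, which find damaged bases, and the nuclease Ercc5 passed in neither comparison. Ddb2 differed by 0.19 in E2f1 knockout livers and 0.15 in E2f2-labelled livers, and Xpc by 0.01 in E2f1 knockout livers and -0.10 in E2f2-labelled livers. Ercc5 differed by -0.08 in E2f1 knockout livers and 0.39 in E2f2-labelled livers. It was slightly above wild type on all 4 E2f2-labelled arrays (limma adjusted p = 0.0598). A second, dimmer Ercc5 probe differed by 0.03 in E2f2-labelled livers when all probes were fitted (limma adjusted p = 0.945), and its arrays overlapped wild type.

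The remaining genes had diverse functions. Abcb1a encodes P-glycoprotein, a pump that exports drugs and other foreign compounds, and its promoter window is shown above. It read -2.30, -3.14, -3.21 and -2.51 in E2f1 knockout livers, -2.74, -3.50, -3.33 and -2.40 in E2f2-labelled livers and 0.24, -0.42, -1.27 and -0.53 in wild type livers (probe at chromosome 5, 8748075 to 8748134, mm9). It was above background on all wild type arrays, on 3 E2f1 knockout arrays and on 2 E2f2-labelled arrays, and wild type did not overlap the other groups. Abcb1a fell by 2.29 ± 0.34 in E2f1 knockout (limma adjusted p = 0.00173) and by 2.49 ± 0.34 in E2f2-labelled livers (adjusted p = 0.00077). Under normexp Abcb1a differed by -0.97 in E2f1 knockout and by -0.95 in E2f2-labelled livers and still passed in both, so its size depended on the background correction. Rps27l, a ribosomal protein paralogue, varied little, from 6.66 to 7.30 over all 12 arrays. All 8 arrays of the other groups were above the 4 wild type arrays, yet neither the difference in E2f1 knockout (0.34 ± 0.14; limma adjusted p = 0.104) nor that in E2f2-labelled livers (0.32 ± 0.14; adjusted p = 0.117) passed. Exoc4, a subunit of the exocyst, differed by -0.31 ± 0.32 in E2f1 knockout (limma adjusted p = 0.557) and -0.75 ± 0.32 in E2f2-labelled livers (adjusted p = 0.111), and passed in E2f2-labelled livers without wild type replicate 3 (-0.99, adjusted p = 0.0343).

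**Figure D3:**
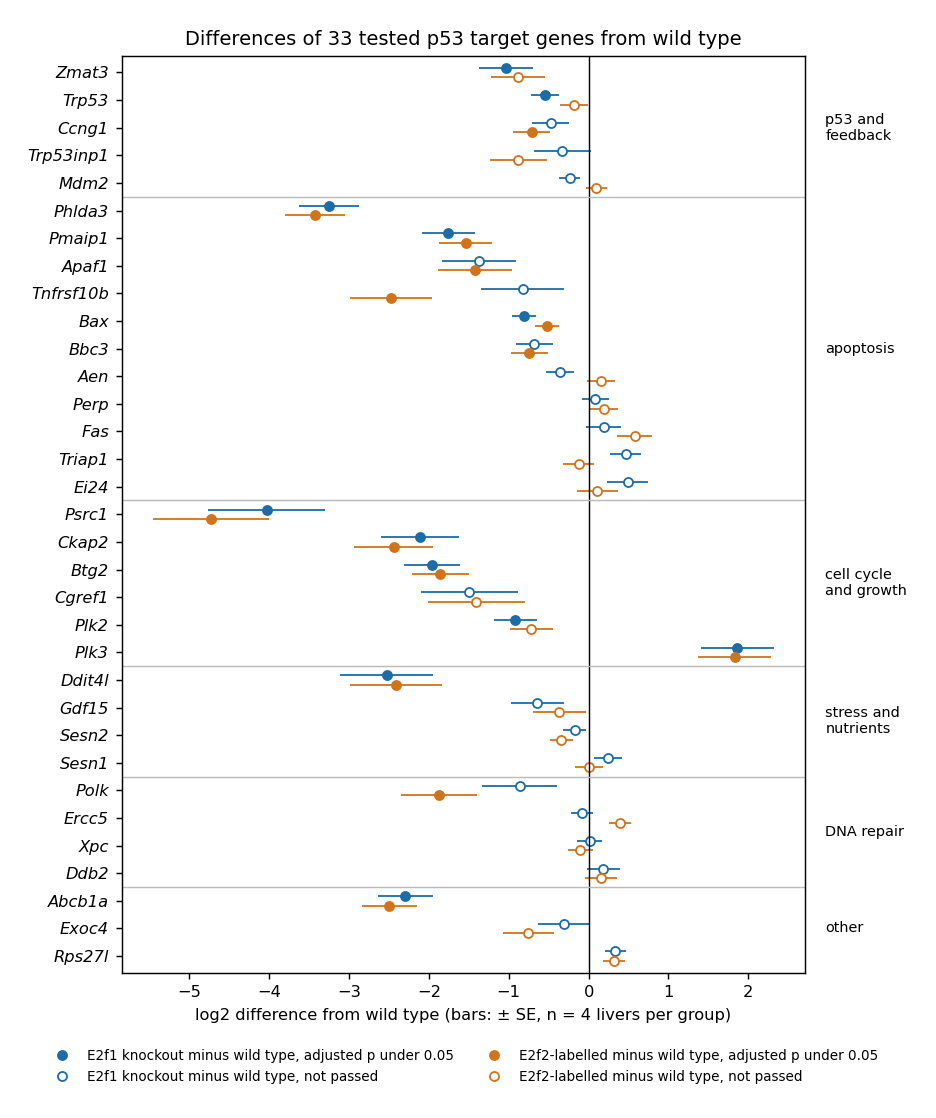
Log2 difference from wild type of each of the 33 tested p53 target genes, for E2f1 knockout (blue, upper point of each pair) and E2f2-labelled livers (orange), with bars of ± SE and 4 samples per group. Filled points passed at a limma adjusted p under 0.05 over all genes. Both points are filled left of 0 for 8 genes and right of 0 for Plk3 alone, and 16 genes have 2 open points.

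Separation of the arrays was counted without a model. In E2f1 knockout livers 13 of the 33 tested genes did not overlap wild type on any array (39.4%, against 21.3% of all genes tested), 11 below it (33.3% against 6.77%) and 2 above it. In E2f2-labelled livers 13 did not overlap (39.4% against 23.9%), again 11 below (33.3% against 7.06%) and 2 above. Of the 11 below wild type, Psrc1, Ddit4l, Ckap2 and Apaf1 in E2f1 knockout, and Psrc1 and Ckap2 in E2f2-labelled livers, had passed through the wild type arrays alone. Among the 28 genes above background on at least 3 arrays of every group, 6 lay below wild type in E2f1 knockout (21.4%, against 6.29% of the 18082 such genes) and 8 in E2f2-labelled livers (28.6% against 6.22%). The genes that lay wholly above wild type were Plk3 and Rps27l in E2f1 knockout, and Ercc5 and Rps27l in E2f2-labelled livers. Abcb1a, Btg2, Phlda3, Plk3 and Pmaip1 passed in both comparisons under every one of the 22 or 23 alternative settings in which they were tested. Psrc1 passed in all of its 19, but it had been tested through the wild type arrays alone. It was not tested under the filter on all arrays or without wild type replicate 1, 2 or 4, so its passing carries little weight.

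Set directly against each other, the E2f1 knockout and E2f2-labelled livers gave no call. None of the 33 passed between E2f1 knockout and E2f2-labelled livers in limma, against 1.62% of all genes in either direction and 0.904% lower in E2f1 knockout. The difference, E2f1 knockout minus E2f2-labelled, was -0.48 for Ercc5 (95% interval -0.78 to -0.18; limma adjusted p = 0.14), the smallest adjusted p of the 33. On the second Ercc5 probe it was -0.33 (limma adjusted p = 0.626 when all probes were fitted). For Tnfrsf10b the difference was 1.65, for Triap1 0.59, for Aen -0.51 and for Mdm2 -0.33. The median 95% interval reached 0.59 to each side of the difference, and that of Psrc1 reached 1.59, so differences of that size could go unseen. Arrays did not overlap for 5 genes (15.2% against 9.04% of all genes). Mdm2, Aen and Ercc5 were lower in E2f1 knockout (9.09% against 5.22%), and Tnfrsf10b was higher. The fifth was Psrc1, whose values were below background on all 8 arrays and so have no order between these groups.

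The spread of these genes was widest in wild type. The median SD over the 33 genes was 0.30 in E2f1 knockout, 0.32 in E2f2-labelled and 0.42 in wild type livers. Over all genes tested it was 0.28 in E2f1 knockout, 0.26 in E2f2-labelled and 0.33 in wild type livers. Wild type array 1 was the highest wild type array for 24 of the 33 genes and array 3 the lowest for 24, against 32.1% and 31.9% of all genes. The mean level of the 33 genes was 0.32, 0.32, 0.30 and 0.24 on the E2f1 knockout arrays, 0.26, 0.16, 0.14 and 0.20 on the E2f2-labelled arrays, and 1.45, 1.31, 0.57 and 0.89 on the wild type arrays. All wild type means were above all others, with array 3 the nearest. These means include Psrc1, Ddit4l, Ckap2 and Apaf1, which were tested through the wild type arrays alone, so part of the gap was built in. Within slides 1 to 4 the median difference of the 33 genes was -0.96, -0.62, -0.02 and -0.49 in E2f1 knockout and -0.73, -0.73, -0.13 and -0.29 in E2f2-labelled livers.

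The number of genes that fell, and their median difference, depended on single wild type arrays. Without wild type replicate 1, 5 p53 target genes fell in E2f1 knockout livers and 6 in E2f2-labelled livers. Without replicate 2 it was again 5 in E2f1 knockout livers and 6 in E2f2-labelled livers. Without replicate 4 the counts were 6 in E2f1 knockout livers and 8 in E2f2-labelled livers. They were 16 in E2f1 knockout livers and 18 in E2f2-labelled livers without replicate 3. Calls over all genes, in either direction, moved the same way, so these shifts were not confined to p53 target genes. For E2f1 knockout, 4233 calls became 3313 without wild type replicate 1, 2510 without 2, 3622 without 4 and 4902 without 3. For the E2f2-labelled group, 4563 calls became 3393, 2749, 3792 and 5270 in the same order. Psrc1, Ddit4l, Ckap2 and Apaf1 left the test when wild type replicate 1, 2 or 4 was dropped, because only 2 wild type arrays above background then remained. The median difference of the tested p53 target genes was -0.21 in E2f1 knockout livers and -0.43 in E2f2-labelled livers without wild type replicate 1. It was -0.34 in E2f1 knockout livers and -0.47 in E2f2-labelled livers without replicate 2. Without wild type replicate 4 it was -0.52 in E2f1 knockout livers and -0.38 in E2f2-labelled livers, and without replicate 3 it was -0.58 in E2f1 knockout livers and -0.85 in E2f2-labelled livers. Under normexp it was -0.29 in E2f1 knockout livers and -0.20 in E2f2-labelled livers.

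Markers of dividing cells and of liver tumours differed between the same groups. Of 25 mitosis genes 18 were tested, and 16 fell in each comparison, including Mki67 and Plk1, with median differences of -1.91 in E2f1 knockout livers and -2.0 in E2f2-labelled livers. The summed level of these genes, given as their mean, ran from -2.78 to -1.41 in E2f1 knockout, from -2.82 to -2.19 in E2f2-labelled and from -0.97 to 0.04 in wild type livers. Aurkb, Bub1, Cenpf, Kif11, Ttk, Melk and Ncapg were too dim to be tested. On single arrays 11 to 16 of the 18 mitosis genes were well above background in E2f1 knockout, 12 to 15 in E2f2-labelled and 16 to 18 in wild type livers. A lower level was built into any of them tested through the wild type arrays alone, and these were not counted. Of 15 tumour markers 12 were tested, and 9 fell in E2f1 knockout livers and 10 in E2f2-labelled livers, among them the oncofetal genes Afp (-3.78 in E2f1 knockout livers and -5.25 in E2f2-labelled livers) and Gpc3 (-3.61 in E2f1 knockout livers and -5.35 in E2f2-labelled livers, where 2 of 4 arrays were well above background). Their mean was 0.43, -0.43, -1.08 and -0.22 in E2f1 knockout, -1.01, -0.57, -0.79 and -1.37 in E2f2-labelled and 3.11, 3.36, 0.62 and 2.82 in wild type livers. Wild type array 3, low for most p53 target genes, was also the lowest wild type array for the tumour markers. For the mitosis genes the wild type means were -0.97, 0.04, -0.75 and -0.63. There the lowest was array 1, the highest wild type array for most p53 target genes. Igf2, Epcam and Mmp12 were too dim to be tested. Of the 12 hepatocyte genes 5 rose in E2f1 knockout livers and 4 in E2f2-labelled livers, and none fell. Among markers of other cells, 4 of 9 neutrophil and 4 of 8 stellate cell genes fell in E2f1 knockout, against 2 of 9 and 4 of 8 in E2f2-labelled livers, and of 12 macrophage genes 3 fell in E2f1 knockout livers and 4 in E2f2-labelled livers, while 1 rose in each. In each comparison 2 of 8 endothelial and 1 of 4 bile duct genes fell, and of 4 red cell genes 1 fell and 1 rose. Of 8 T and NK cell genes 3 fell in E2f2-labelled livers alone, and of 6 B cell genes 1 rose in E2f1 knockout alone. Of 2 fat cell genes 1 fell, in E2f2-labelled livers. The mean of these 2 was 4.51 on E2f1 knockout array 1, against -0.23, -0.71 and -1.45 on the other E2f1 knockout arrays. Over all genes tested, 13.2% rose and 7.41% fell in E2f1 knockout, and 14.6% rose and 7.57% fell in E2f2-labelled livers. The part of immune or other cells, tumour content or cell division in the levels of the p53 target genes was not tested.

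**Figure D4:**
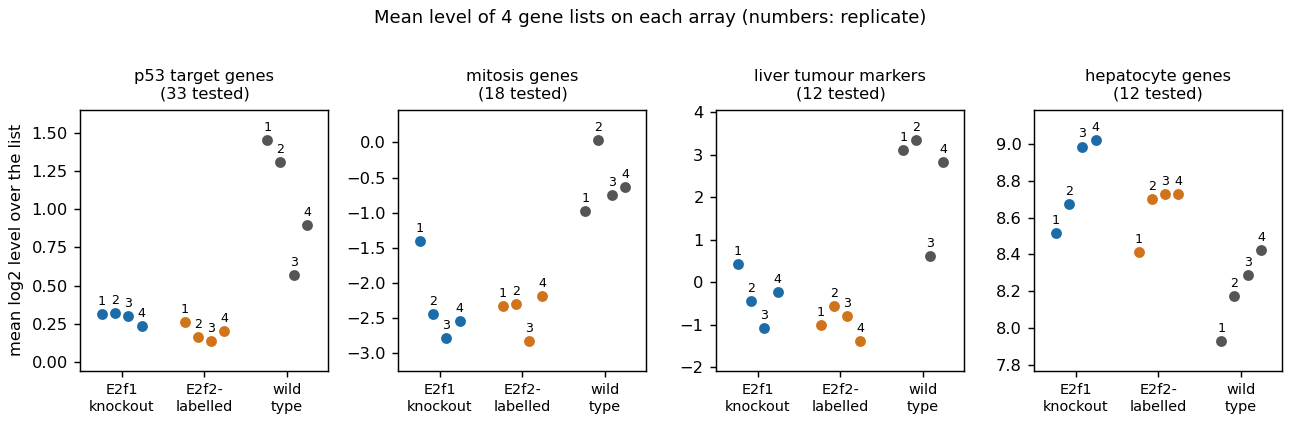
Mean log2 level on each array over the tested genes of 4 lists, the 33 p53 target genes, 18 mitosis genes, 12 liver tumour markers and 12 hepatocyte genes (points are arrays, numbers are replicates, and each panel has its own vertical range). Wild type arrays are highest for the first 3 lists and the lowest for hepatocyte genes but for an overlap with 1 E2f2-labelled array. Wild type array 3 has the lowest wild type mean for the p53 target genes and the tumour markers, and array 1 for the mitosis and hepatocyte genes. Psrc1, Ddit4l, Ckap2 and Apaf1, tested through the wild type arrays alone, are among the p53 target genes.

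Other genes of the pathway were examined from lists written from general knowledge, with earlier results of these data known. Of 24 regulators of p53, 22 were tested, and 3 fell in E2f1 knockout while 1 rose and 1 fell in E2f2-labelled livers. Cdkn2a, whose locus encodes an inhibitor of Mdm2, read -1.69, -0.53, -0.07 and -1.48 in E2f1 knockout livers, -0.04, -0.71, -1.48 and -1.04 in E2f2-labelled livers and 2.51, 2.95, 2.21 and 0.87 in wild type livers. Its wild type arrays were all above the others, and Cdkn2a fell by 3.08 ± 0.48 in E2f1 knockout (limma adjusted p = 0.00206) and by 2.95 ± 0.48 in E2f2-labelled livers (adjusted p = 0.00217). Trp63, a relative of p53, fell by 2.57 ± 0.46 in E2f1 knockout (limma adjusted p = 0.00386), and Crebbp, an acetyltransferase that modifies p53, by 2.31 ± 0.41 (adjusted p = 0.00372). In both, the highest E2f1 knockout array was replicate 4, close under the lowest wild type array. Levels on the E2f1 knockout arrays were 1.07, 0.59, 0.22 and 2.64 for Trp63 and 2.26, 1.65, 1.42 and 3.60 for Crebbp. Whether these probes read separate transcripts was not tested, so they may not be separate falls. Sirt1, a deacetylase of p53, rose by 0.82 ± 0.19 in E2f2-labelled livers (limma adjusted p = 0.00993), against 0.40 ± 0.19 in E2f1 knockout (adjusted p = 0.151). The median difference over the 22 regulators was 0.04 in E2f1 knockout livers and 0.25 in E2f2-labelled livers.

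A further 34 targets of p53 gave a more even split. Of the 32 tested, 4 rose and 6 fell in E2f1 knockout, and 4 rose and 9 fell in E2f2-labelled livers, with median differences of -0.20 in E2f1 knockout livers and -0.05 in E2f2-labelled livers. Among all genes tested, 13.2% rose and 7.41% fell in E2f1 knockout, and 14.6% rose and 7.57% fell in E2f2-labelled livers. Cdkn1a, the cyclin-dependent kinase inhibitor that carries out the p53 arrest of the cycle, read -0.78, -0.80, 1.26 and 0.36 in E2f1 knockout livers, -0.83, -1.50, -1.49 and -0.18 in E2f2-labelled livers and 2.91, 2.52, 1.02 and 1.63 in wild type livers. It fell by 2.01 ± 0.52 in E2f1 knockout (limma adjusted p = 0.0187), where 1 array overlapped wild type, and by 3.02 ± 0.52 in E2f2-labelled livers (adjusted p = 0.00293), where none did. Ptp4a3, a phosphatase, fell by 0.80 ± 0.21 in E2f1 knockout (limma adjusted p = 0.0218) and by 2.16 ± 0.21 in E2f2-labelled livers (adjusted p = 9.98e-05). Ada, an enzyme of purine breakdown, rose by 1.02 in E2f1 knockout livers and 1.94 in E2f2-labelled livers (limma adjusted p = 0.00944 and 0.000289). Rap2b, a small GTPase, and Dram1, a lysosomal protein of autophagy, were tested through the wild type arrays alone, and each was well above background on no E2f1 knockout array and on 1 E2f2-labelled array. Rap2b was at least 1.49-fold lower in E2f1 knockout (limma adjusted p = 0.0441) and did not pass in E2f2-labelled livers (adjusted p = 0.0614). Dram1 was called lower in E2f2-labelled livers (limma adjusted p = 0.042), where 3 of the 4 values were at background and the size was not well measured, and was at least 1.61-fold lower in E2f1 knockout without passing (adjusted p = 0.136). The direct test, whose calls are named after their values were seen, called 2 of the 32 higher in E2f1 knockout than in E2f2-labelled livers, Bid, a link between death receptors and mitochondria (1.21 ± 0.17; limma adjusted p = 0.00283), and Ptp4a3 (1.37 ± 0.21; adjusted p = 0.00517).

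The other genes of the mitochondrial death route were split in direction. Of 19 other genes of the Bcl2 family and the caspases, 16 were tested, and 3 rose and 3 fell in E2f1 knockout, while 3 rose and 2 fell in E2f2-labelled livers. Birc5, an inhibitor of apoptosis that is also a mitosis gene, fell by 1.41 ± 0.30 in E2f1 knockout and by 1.71 ± 0.30 in E2f2-labelled livers (limma adjusted p = 0.00819 and 0.00324). Bcl2, the founding survival protein, fell by 1.01 ± 0.23 in E2f1 knockout and by 0.92 ± 0.23 in E2f2-labelled livers (limma adjusted p = 0.0113 and 0.0161). Cycs, the cytochrome whose release activates Apaf1, rose by 0.95 in E2f1 knockout livers and 0.71 in E2f2-labelled livers (limma adjusted p = 0.00659 and 0.0227). Bik, which promotes death, rose in E2f1 knockout (1.33 ± 0.29; limma adjusted p = 0.00836).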

How the data were processed

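RNA of 12 liver samples was hybridised to 1 array each, with 50 ng of RNA per labelling, per the labels. The authors read the arrays with Agilent Feature Extraction 10.7.3.1, named in the submitters' processing notes. Its processed signal, as deposited, is an intensity with background already removed, per the file headers. It was log2-transformed here, and each array's 75th percentile was subtracted. Control and outlier spots were dropped and spots of a probe averaged, which left 28434 of 55681 probes past the detection filter. The brightest tested probe stood for a gene, and no spot was saturated. Coordinates of probes follow the files' own build, mm9, and names were updated through RefSeq. Groups came from the titles. The deposited series matrix, with log2 values that share 1 distribution over all arrays, served as an alternative, and no source used here says how the authors made it.

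All 12 arrays entered 1 limma 3.58.1 fit (R 4.3.3) with no covariate, which left 9 residual degrees of freedom. Adjusted p-values follow Benjamini-Hochberg over 20568 genes. The fit was tested on simulated data. Nothing in the labels states more about the 4 replicates of a group than their number, so p-values measure the spread between these samples, which may be technical, and their number limits the precision. Replicate numbers coincide with slides. Deviations from the group means correlated above 0.1 in 10 of the 12 same-slide pairs (r 0.04 to 0.42, across genes), so not in every pair, and the slide block is an alternative. Further alternatives were normexp correction (offset 50), quantile normalization, median centring, no filter, a filter on all 12 arrays, kept outlier spots, the mean of all probes, array weights, only the groups compared, and leaving out each array. The members, the other lists and the rule for naming genes (members called with a change of at least 1, Trp53, Mdm2, members whose probes differ in call, Cdkn1a, and up to 5 called genes of each further list) were chosen with earlier results of these data known. Other members were given in addition, by their differences. Some genes that the rule names are not reported here.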

Additional observations from a re-analysis of the deposited data

Results flagged for a closer look

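Among the 99 sets of 4 arrays examined (33 genes in 3 groups), 1 held an array far from the other 3. Psrc1 read -3.81 on E2f1 knockout array 1, against -4.92, -4.86 and -4.79 on the other E2f1 knockout arrays. All 4 values were below background, and chance alone would single out about 5% of such sets.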

How the results depend on the processing

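Of 2223 values of single p53 target genes under the alternatives, 2106 kept their side of the threshold, 77 lost a call, 40 gained one and none turned round a called direction. Direction was not compared where neither fit called the gene. Some such values changed sign, as for Perp in E2f1 knockout livers (-0.17 to 0.21) and Mdm2 in E2f2-labelled livers (-0.13 to 0.16). Most lost calls belonged to Zmat3, Trp53 and Plk2 in E2f1 knockout and to Bbc3, Ccng1, Apaf1 and Bax in E2f2-labelled livers. With normexp the median difference of the p53 target genes was -0.29 in E2f1 knockout livers and -0.20 in E2f2-labelled livers, and 217 genes were called between E2f1 knockout and E2f2-labelled livers, against 334. With probes above background on all 12 arrays, 7 p53 target genes fell in E2f2-labelled livers (median -0.34) and 203 genes were called between E2f1 knockout and E2f2-labelled livers, where fewer genes were tested. Array weights called 512 genes there. Median centring called 2986 genes in E2f2-labelled livers, and no filter called 2786 in E2f1 knockout livers and 2987 in E2f2-labelled livers. Quantile normalization moved the share of called genes that were higher to 50.5% in E2f1 knockout livers and 49.5% in E2f2-labelled livers, against 64.0% and 65.9% as reported, and median centring to 50.2% in E2f1 knockout livers and 49.0% in E2f2-labelled livers. The median of all genes in E2f2-labelled livers was then 0.07 under quantile normalization, against 0.18. Fitting only the groups compared called 1 p53 target gene, Tnfrsf10b, between E2f1 knockout and E2f2-labelled livers. With the slide as a block (paired by replicate number), 2 p53 target genes rose in E2f2-labelled livers, Plk3 and Fas (limma adjusted p = 0.0419 for Fas), Polk and Apaf1 were called lower in E2f1 knockout (adjusted p = 0.0453 for Polk and 0.0239 for Apaf1), and Plk2 and Zmat3 were not (adjusted p = 0.0569 for Plk2 and 0.0576 for Zmat3). In the same blocked fit, 5493 genes were called in E2f1 knockout livers and 6291 in E2f2-labelled livers. Leaving out 1 array gave 2510 to 4902 genes called in E2f1 knockout and 2749 to 5270 in E2f2-labelled livers, 5 to 16 p53 target genes lower in E2f1 knockout and 6 to 18 in E2f2-labelled livers, 1 or 2 higher in E2f2-labelled livers, 0 to 1 higher between E2f1 knockout and E2f2-labelled livers, and a median of -0.58 to -0.21 in E2f1 knockout and of -0.85 to -0.38 in E2f2-labelled livers. Except where a smaller number of genes or arrays is named, the cause was not tested. Signal limits Psrc1, Ckap2, Ddit4l and Apaf1 to bounds in at least 1 group.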
